A study of Mus musculus with 6 samples.

Results

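The ADAM and ADAMTS metalloproteases were followed in the testis transcriptome of mice on 2 diets. Their members were all probes whose gene symbol in the platform annotation is Adam or Adamts followed by a number and, in some genes, a letter. This gave 104 of the 45281 probes on the array, for 49 of 19057 named genes. Testis RNA came from 6 C57Bl/6 males aged 4 months, 1 Illumina MouseWG-6 v2.0 BeadChip per mouse. The standard diet group (SD) holds mice 1, 2 and 5, and the high-fat group (WD, described in the paper as Western-like, with butter and sucrose, and fed from weaning) holds mice 3, 4 and 6. The study drew the arrayed animals at random within each diet, having first set aside the strongest responders, which limits them as a model of that response. Values of single mice are given below in the order of mice 1, 2 and 5 on SD, then mice 3, 4 and 6 on WD. Whole testis was used, so fewer cells of a type and less RNA per cell cannot be told apart.

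ADAM proteins are membrane-anchored and carry a metalloprotease-like and a disintegrin-like domain. Some, such as ADAM10 and ADAM17, cut the outer part of other membrane proteins from the cell surface, whereas many ADAMs of the testis have lost the zinc-binding site and act in sperm maturation and in the meeting of sperm and egg. In the mouse, sperm without ADAM2 or ADAM3 fail to pass from the uterus into the oviduct. ADAMTS proteins are secreted relatives with thrombospondin repeats that cut matrix proteins such as proteoglycans and procollagens.

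The members were sorted by known role into 20 sperm ADAM genes (32 probes), 7 widely expressed ADAM genes (16 probes), 3 neural ADAM genes (11 probes), 2 epididymal or lymphoid ADAM genes (6 probes) and 17 ADAMTS genes (39 probes). The sorting did not use the intensities, although earlier results of these data were known when it was made. The labelled tissue was checked against markers of elongating spermatids, and all 6 measured genes, among them the protamine gene Prm1, were detected on all 6 arrays. Mouse 5 of SD and mouse 6 of WD gave the dimmest arrays, with raw median intensities of 126.2 and 120.1 against 146.6 to 172.5 in the other mice. Between 42% and 47.1% of all probes were detected per mouse.

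The promoters of sperm ADAMs, which are shown because they differ in sequence from those of the other members, held hardly any CpG dinucleotides. RefSeq promoters (build GRCm38.p6, 250 bases before to 50 after the start) were matched by symbol for 25 of the 49 genes. In the sequences below, written 5′ to 3′ on the gene's strand, capitals mark each CpG. Adam21 is a sperm ADAM without any CpG, Adam1b the sperm ADAM with the most, and Adam10 and Adam17 are the principal sheddases.
Adam21 (chr12:81568425-81568724, minus strand): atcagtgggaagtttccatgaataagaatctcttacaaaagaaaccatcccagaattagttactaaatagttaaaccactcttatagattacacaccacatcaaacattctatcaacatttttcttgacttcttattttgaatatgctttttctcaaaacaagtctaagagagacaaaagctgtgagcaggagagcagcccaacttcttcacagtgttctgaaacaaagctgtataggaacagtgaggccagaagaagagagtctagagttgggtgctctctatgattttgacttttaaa
Adam1b (chr5:121503386-121503685, minus strand): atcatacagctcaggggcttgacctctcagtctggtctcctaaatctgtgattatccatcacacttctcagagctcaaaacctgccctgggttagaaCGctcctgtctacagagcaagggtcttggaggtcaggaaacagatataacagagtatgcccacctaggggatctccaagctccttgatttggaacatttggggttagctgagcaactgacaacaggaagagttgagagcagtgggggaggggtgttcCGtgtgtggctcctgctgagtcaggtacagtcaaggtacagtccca
Adam10 (chr9:70678732-70679031, plus strand): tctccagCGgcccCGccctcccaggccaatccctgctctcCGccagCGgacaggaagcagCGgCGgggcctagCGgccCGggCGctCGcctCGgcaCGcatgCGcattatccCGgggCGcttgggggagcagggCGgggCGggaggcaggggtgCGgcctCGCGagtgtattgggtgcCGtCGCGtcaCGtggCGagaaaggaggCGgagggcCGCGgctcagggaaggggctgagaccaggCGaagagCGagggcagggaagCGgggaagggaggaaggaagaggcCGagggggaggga
Adam17 (chr12:21373583-21373882, minus strand): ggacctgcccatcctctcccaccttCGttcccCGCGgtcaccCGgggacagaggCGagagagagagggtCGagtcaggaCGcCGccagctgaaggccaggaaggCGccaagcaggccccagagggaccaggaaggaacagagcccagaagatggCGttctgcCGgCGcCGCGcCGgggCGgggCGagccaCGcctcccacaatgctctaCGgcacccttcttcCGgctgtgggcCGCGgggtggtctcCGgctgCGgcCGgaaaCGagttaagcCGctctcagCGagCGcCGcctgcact

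The Adam21 promoter had 0 CpG and that of Adam1b had 2, against 32 in Adam10 and 30 in Adam17. All 10 matched sperm ADAM promoters had between 0 and 2 CpG, with a median of 0.5. Of all 27025 promoters, 23.8% had at most 2, and the median was 7. Widely expressed ADAMs had 6 to 32 (4 promoters, median 27.5), the lowest being Adam8, a gene of myeloid cells. The ADAMTS promoters ranged from 2 in Adamts13 to 44 in Adamts14 (9 promoters, median 22). The median GC content was 38% in sperm ADAMs, 67.7% in widely expressed ADAMs and 66% in ADAMTS, against 52.7% in all promoters. These are descriptions of the matched genes without a test. Several of the 10 sperm ADAM genes lie in runs of neighbours with close copies, such as Adam6a and Adam6b. Their promoters may therefore not be independent, which also bears on the counts of letters below. Of the 10 sperm ADAM genes, 8 were detected on all 6 arrays, and the other 2 (Adam25 and Adam34) had 1 and 0 CpG.

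**Figure D1:**
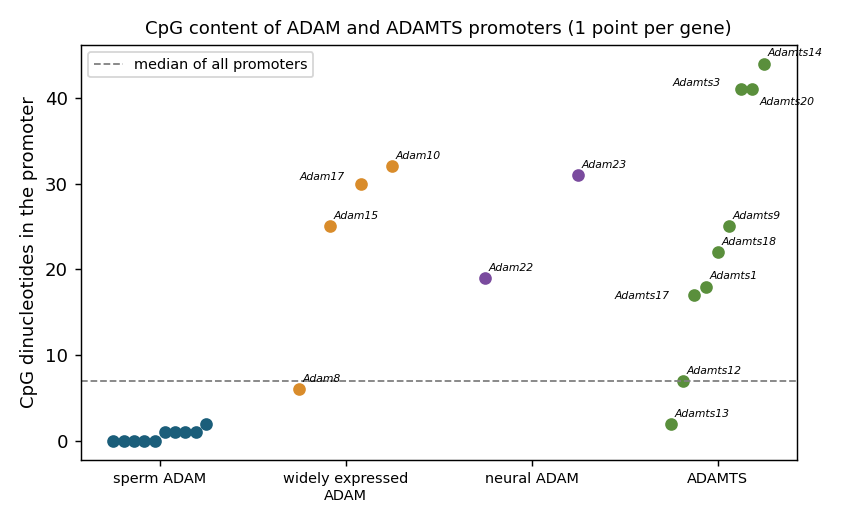
Number of CpG dinucleotides in the promoter (vertical axis) of each matched gene, 1 point per gene, by class. The 10 sperm ADAM points lie between 0 and 2, below the dashed median of 7 over all promoters.

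Further letters were searched on both strands. TATAAA, the core of the TATA box, was present in 4 of the 10 sperm ADAM promoters (Adam29, Adam34l, Adam6a and Adam6b), in 0 of 4 widely expressed ADAMs and in 14.2% of all promoters. TGACGTCA, the cyclic AMP response element, was in 0 of the 10, and in 1.88% of all promoters. Its shorter form TGACG, which lies within it, was in 0 of the 10 and in 21% of all promoters, and of the widely expressed ADAMs only Adam10 held it. Of the 9 ADAMTS promoters, 4 (44.4%) held TGACG, 1 (Adamts1) held TATAAA and 0 held TGACGTCA. No match says only that these letters are not in this window. Both TGACGTCA and TGACG contain a CpG, so a promoter without any CpG cannot hold them. Their absence from the sperm ADAM promoters is therefore not separate from the low CpG counts given above.

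A larger share of sperm ADAMs than of any other class was detected in the testis of every mouse. Of their 32 probes, 23 (71.9%) had a detection p under 0.05 on all 6 arrays, against 6 of 16 (37.5%) for widely expressed ADAMs, 1 of 11 for neural ADAMs, 0 of 6 for epididymal and lymphoid ADAMs and 2 of 39 (5.13%) for ADAMTS. Over the whole array the share was 36.2%. By genes, 17 of 20 sperm ADAMs, 4 of 7 widely expressed ADAMs and 2 of 17 ADAMTS had such a probe. The widely expressed class includes Adam8, Adam12 and Adam33, described in this text as genes of particular cells or tissues. None of these had a probe detected on all 6 arrays, which lowers the share of that class. The sperm class was made of genes already known from testis or sperm, so its larger share partly restates the sorting. These counts were not tested, since probes of a gene share their target. The probe signal also depends on the probe itself, so levels are compared between mice and not between genes.

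**Figure D2:**
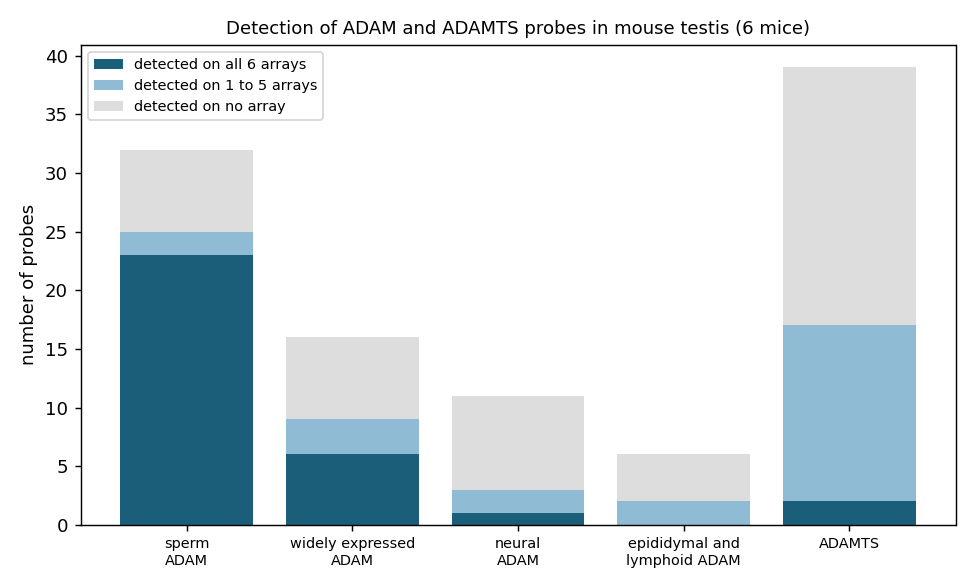
Number of probes (vertical axis) in each class that were detected on all 6 arrays, on 1 to 5 arrays or on no array. Sperm ADAMs had 23 of 32 probes detected on all arrays and ADAMTS had 2 of 39.

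Among the sperm ADAMs, a group of neighbouring genes was detected throughout. In the RefSeq gene order, Adam18, Adam3, Adam5 and Adam32 lie side by side and are followed by Adam9, a widely expressed member, and all 5 were detected in all mice. Adam3, whose protein sperm need for migration into the oviduct and for binding the egg coat, had log2 intensities of 14.48, 14.64 and 14.57 on SD against 14.42, 14.67 and 14.71 on WD. Its raw intensity was between 21199.9 and 28659.4. Adam32, a sperm surface member, ranged from 14.14 to 14.31, Adam5 from 13.54 to 13.67, and Adam18 from 12.26 to 12.54 over the 6 mice. The diets overlapped at each of these 4 genes.

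Genes of testases, which are testis ADAMs, several with an intact proteolytic site, lie in other runs of neighbours. In the run Adam24, Adam25, Adam20 and Adam39, 3 of 4 genes were detected on all arrays, and in the run Adam26b, Adam26a, Adam34l and Adam34 again 3 of 4. Adam24, which encodes a mature sperm protease, ranged from 11.91 to 12.30 over the mice. Adam25 was detected in SD mouse 5 alone (log2 intensity 5.25, against 4.49 to 4.78 in the other mice), and both probes of Adam34 were undetected in every mouse. Its neighbour Adam34l was detected at 1 probe (8.99 to 9.81) and undetected at the other. Genes in such runs have close copies, so signal shared between paralogs cannot be told apart here.

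Probes of the same gene could differ widely. Adam26a had values of 9.55 to 9.99 at its brightest probe, 6.47 to 7.18 at the next and was undetected at its remaining probe in all mice, although all 3 are annotated to the same transcript. Adam29 and Adam30, both testis ADAMs, likewise had 2 probes detected throughout and 1 that was never detected. Adam4 had 3 probes, all detected in every mouse.

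Adam2, which encodes fertilin beta, the partner of ADAM1B on sperm, was not detected at its only probe. The log2 intensities were 4.59, 4.62 and 4.55 on SD against 4.40, 4.78 and 4.76 on WD, with raw intensities of 106.3 to 141.2. The probe was not above background in any mouse, so no level of the gene is given. Adam1b was detected, at 9.30, 9.06 and 9.19 on SD against 9.14, 9.63 and 9.28 on WD. The paralogs Adam6a and Adam6b, which lie side by side and are together needed for male fertility in the mouse, ranged from 10.91 to 11.27 and from 7.53 to 8.38.

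Sperm ADAMs did not pass the test between the diets. No member of any class had an adjusted p under 0.05 in the limma comparison, where 0.0% of the 19763 tested probes were called higher and 0.0% lower. Of the 104 member probes, 36 were tested, being detected on at least 3 arrays, and 24 of these were sperm ADAMs. At an unadjusted p under 0.05 there was 1 of the 36, a probe of Adam15 higher in WD, against 5.13% of all tested probes. The unadjusted share of all tested probes was 2.56% for higher and 2.57% for lower in WD. The diets did not overlap at 3 of the 36 (8.33%), against 10.2% of all tested probes. These were 1 probe each of Adam15 and Adam20, higher in WD (5.17% of all tested probes), and 1 of Adam4, lower in WD (4.98%).

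**Figure D3:**
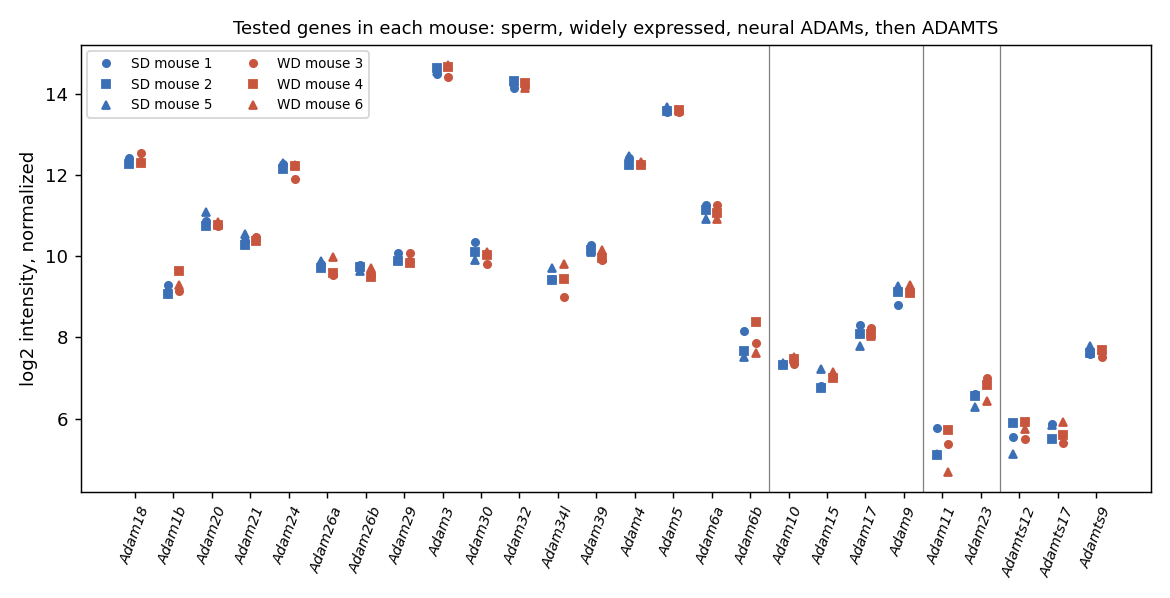
Normalized log2 intensity (vertical axis) of each of the 26 tested genes at the probe with the highest mean, 1 point per mouse, with SD in blue and WD in red. The 17 sperm ADAM genes come first and grey lines divide the classes. Heights of different genes are not comparable, and points of the diets lie close together within each gene.

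At the probe with the highest mean, 5 of the 17 tested sperm ADAM genes were higher and 12 lower in WD, with log2 differences between -0.17 and 0.18. Their median was -0.06, against 0.007 over all 11264 tested genes, of which 51.7% were higher in WD. With median scaling of the arrays in place of quantile normalization the median of the sperm ADAMs was 0.03, so its sign depended on the scaling. The median over all tested genes was then 0.053. In each mouse, the median of these genes relative to the SD mean was 0.04, -0.08 and 0.01 on SD against -0.10, -0.05 and -0.01 on WD. The values of the diets overlapped. Elongating spermatid markers had 0.01, 0.04 and -0.04 on SD against -0.12, -0.03 and -0.09 on WD. Of these 6 markers 0 were higher in WD, with differences of 0.00 in Prm1 and Odf1. Prm1 was very bright (raw intensity 51764.8 to 62126.2) and had only the normalized values 15.77 and 15.81. Quantile normalization gives equal ranks equal values, which limits what Prm1 can show. The summed linear level of the 6 markers, in which the brightest probes such as Prm1 weigh most, was 173002 to 179500 on SD. On WD it was 165894 to 170973. The part of these markers' cells in the values of the sperm ADAMs was not tested. Of the round spermatid markers 4 of 5 tested genes were higher in WD (median 0.02), with -0.04, 0.04 and 0.05 on SD against 0.14, -0.03 and -0.08 on WD. Of the spermatocyte markers 2 of 6 were higher (median -0.14), with 0.05, -0.14 and 0.10 on SD against -0.20, -0.14 and 0.07 on WD.

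The sperm ADAM genes with the smallest p were Adam39, Adam26b, Adam1b, Adam30 and Adam20. Adam39, a neighbour of Adam20, had 10.27, 10.16 and 10.10 on SD against 9.90, 9.96 and 10.16 on WD (1.12-fold lower in WD, adjusted p = 0.942). WD mice 3 and 4 lay below all SD mice, while WD mouse 6 lay among them. Adam26b had 9.79, 9.73 and 9.64 on SD against 9.55, 9.50 and 9.72 on WD (log2 difference -0.13 ± 0.13, where ± gives limma's standard error here and below). Here too WD mouse 6 was within the SD values. Adam1b had a log2 difference of 0.17 ± 0.16 at its brighter probe, where WD mouse 4 was the highest. Its dimmer probe, detected in 4 mice, had 5.75, 5.23 and 5.48 on SD against 5.03, 5.64 and 5.44 on WD (-0.12 ± 0.20).

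Signs also differed between probes of Adam20, Adam29 and Adam30. Adam20 had 10.88, 10.74 and 11.09 on SD against 10.75, 10.77 and 10.84 on WD at its brighter probe, a difference of -0.12 ± 0.14. At its other probe it had 10.53, 10.60 and 10.67 on SD against 10.67, 10.69 and 10.87 on WD, a difference of 0.15 ± 0.13. The unrounded values of the second probe did not overlap between the diets, whereas those of the first did. Adam30 had 10.35, 10.10 and 9.92 on SD against 9.80, 10.02 and 10.11 on WD at its brighter probe (-0.15 ± 0.16), and 9.34, 9.11 and 9.09 on SD against 9.22, 9.58 and 8.83 on WD at the other (0.03 ± 0.20). The diets overlapped at both probes. Adam29 had 10.08, 9.89 and 9.94 on SD against 10.08, 9.83 and 9.93 on WD (-0.02 ± 0.13), and 9.26, 9.12 and 9.22 on SD against 9.10, 9.22 and 9.48 on WD (0.07 ± 0.14). Here too the diets overlapped at both probes. Of the 9 members with several tested probes, 5 had probes of opposite sign, the fifth being Adam10. In Adam4 all 3 probes were lower in WD, by 0.09, 0.11 and 0.12 on the log2 scale, each by less than its standard error.

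**Figure D4:**
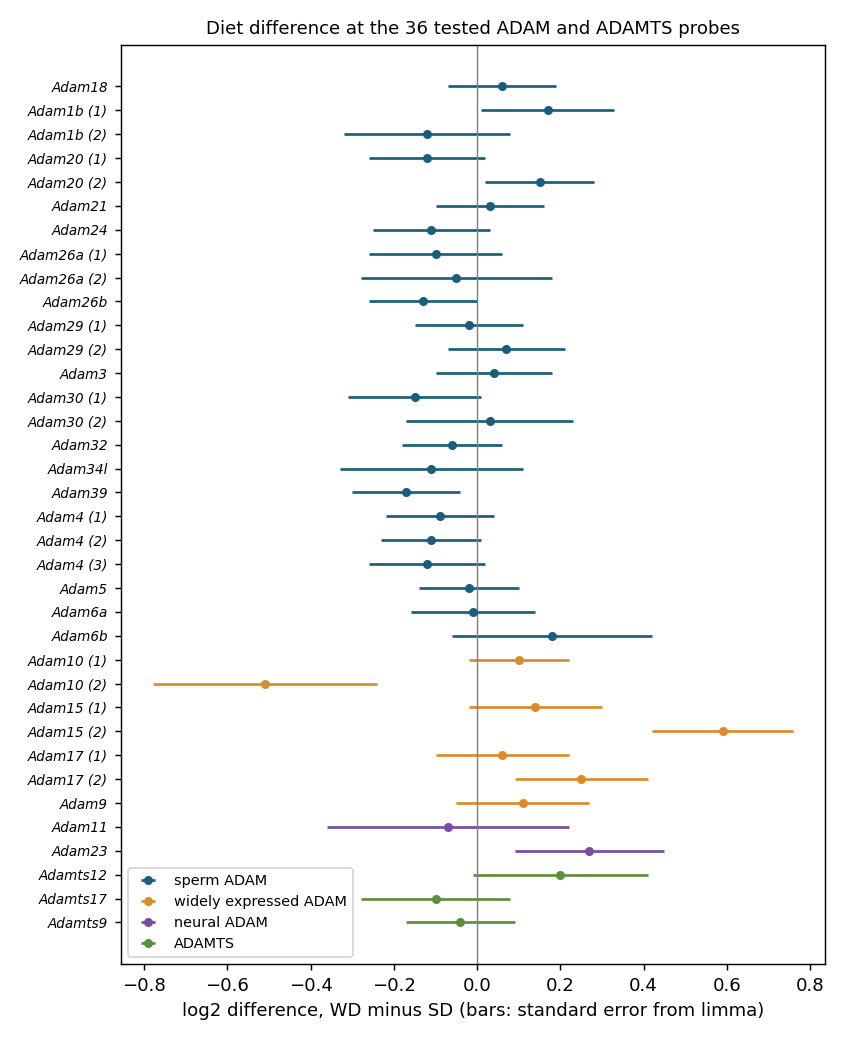
Log2 difference WD minus SD (horizontal axis, points) with its standard error from limma (bars) at the 36 tested probes, numbered from the brightest where a gene has several. The sperm ADAM points lie between -0.17 and 0.18, and the dimmer probes of Adam10 and Adam15 lie farthest from 0.

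The widely expressed ADAMs detected in every mouse were Adam9, Adam10, Adam15 and Adam17, and all 4 had small positive differences at their brightest probes. With the mean of all tested probes of a gene 3 of 4 were higher in WD. The same count was found without mouse 1 of SD and without mouse 5 of SD. At the brightest probes the log2 differences were between 0.06 and 0.14 with a median of 0.10, and none passed the test. Adam12, a member of muscle and bone, was detected at 1 of 2 probes in WD mouse 4 alone, and Adam33, of smooth muscle, in no mouse. Adam8 was detected in 1 mouse of each diet at 1 of 3 probes. In each mouse, the median of the 4 tested genes relative to the SD mean was -0.07, 0.01 and 0.11 on SD against 0.08, 0.06 and 0.20 on WD, so the diets overlapped.

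Adam15, an ADAM of epithelial and endothelial cells, gave the lowest p of all members at its dimmer tested probe. There it had 6.46, 6.10 and 6.68 on SD against 6.91, 7.14 and 6.96 on WD. All WD mice were above all SD mice, and the difference was 0.59 ± 0.17 on the log2 scale (1.5-fold, unadjusted p = 0.00942, adjusted p = 0.872). This probe is annotated to another transcript of the gene than the brighter probe, which had 6.80, 6.75 and 7.23 on SD against 7.03, 7.0 and 7.16 on WD (0.14 ± 0.16). At the brighter probe SD mouse 5 was the highest of all mice. A further 3 probes of Adam15 were detected in no mouse. Over the alternatives the difference of the dimmer probe was between 0.27, without background correction, and 0.74, without mice 5 and 6.

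The sheddase genes did not pass the test. Adam10, which cuts Notch receptors, had 7.34, 7.32 and 7.37 on SD against 7.35, 7.46 and 7.52 on WD (0.10 ± 0.12). Its dimmer probe, detected in 3 mice, had 5.29, 6.46 and 5.71 on SD against 5.20, 5.25 and 5.48 on WD (-0.51 ± 0.27, unadjusted p = 0.1), with SD mouse 2 above the rest. Adam17, which releases tumour necrosis factor, had 8.31, 8.09 and 7.78 on SD against 8.24, 8.09 and 8.04 on WD (0.06 ± 0.16), and 0.25 ± 0.16 at its other probe. SD mice spanned the WD values at the brighter probe of Adam17. Adam9 had 8.79, 9.13 and 9.26 on SD against 9.12, 9.10 and 9.29 on WD (0.11 ± 0.16), where SD mouse 1 was the lowest.

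Of the neural ADAMs, whose proteins lack protease activity and bind LGI proteins at synapses, Adam23 was detected in all mice. It had 6.61, 6.56 and 6.29 on SD against 7.0, 6.84 and 6.43 on WD (0.27 ± 0.18, adjusted p = 0.935). WD mice 3 and 4 lay above all SD mice, and WD mouse 6 did not. The difference was 0.15 without WD mouse 3 and 0.43 without WD mouse 6. Adam11 was detected in 3 mice at 1 of 4 probes and in 1 mouse at another, and Adam22 in no mouse at any of 5 probes. Adam7, a gene of the epididymis, was undetected (4.54 to 5.13), as were 4 of 6 measured epididymis markers, among them Lcn5 and Defb12. Of the others, Cst11 was detected in 5 mice at its brighter probe and Lcn8 in 1 mouse of each diet. Adam28 had 5 probes, of which 1 was detected in SD mice 1 and 5 and 1 in SD mouse 1, and none in WD mice.

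Few ADAMTS genes were detected in the testis of every mouse. Of 17 genes, 2 were detected on all arrays, 3 were tested, 9 others had a probe detected on 1 or 2 arrays, and 5 were undetected on all arrays, among them the procollagen proteases Adamts3 and Adamts14. Adamts9, a versican-cleaving protease, had 7.59, 7.63 and 7.80 on SD against 7.51, 7.69 and 7.70 on WD (-0.04 ± 0.13). Its other probe was detected in WD mouse 6 alone. Adamts17 had 5.88, 5.49 and 5.84 on SD against 5.41, 5.59 and 5.92 on WD (-0.10 ± 0.18), and Adamts12, which cuts cartilage oligomeric matrix protein, had 5.55, 5.89 and 5.13 on SD against 5.49, 5.92 and 5.75 on WD (0.20 ± 0.21). The diets overlapped at all 3 genes. Adamts1, a protease induced at ovulation, was detected at 1 of 3 probes, in SD mouse 2 (5.53) and WD mouse 3 (5.56), against 4.91 to 5.18 in the other mice.

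Genes that mature sperm ADAMs were well detected and did not pass the test. Of 16 listed genes 14 had a probe and 13 were tested, with 4 higher and 9 lower in WD (median -0.04). Of their 23 tested probes 1 had an unadjusted p under 0.05, lower in WD, against 2.57% of all tested probes in that direction. The chaperone genes of ADAM folding, Calr3, Clgn and Pdilt, had differences of -0.08 ± 0.12, -0.05 ± 0.15 and -0.03 ± 0.13 at their brightest probes. Ace, whose testis form acts on sperm, had 0.07 ± 0.21 at its brightest probe. Its dimmer tested probes had 0.40 ± 0.35 and 0.46 ± 0.35. All are annotated to the same transcript, so the forms of Ace cannot be told apart here. The smallest p belonged to Prss37, a serine protease-like gene needed for ADAM3 maturation, with 11.46, 11.31 and 11.28 on SD against 10.80, 10.91 and 11.23 on WD (1.29-fold lower on WD, unadjusted p = 0.0402, adjusted p = 0.935). All SD mice were above all WD mice, with WD mouse 6 close to SD mouse 5. Cmtm2b, whose neighbour Cmtm2a shares its role in ADAM3 stability, had 11.28, 11.43 and 11.38 on SD against 10.81, 10.94 and 11.30 on WD (unadjusted p = 0.0605). Cmtm2a, named after its values were seen, had a difference of 0.02 ± 0.16. In both Prss37 and Cmtm2b WD mouse 6 was nearer to the SD mice than the other WD mice were.

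Genes that regulate the somatic proteases did not pass the test. Of 15 listed genes 11 were tested, with 9 higher and 2 lower in WD and a median of 0.20, which was 0.09 over genes detected on all 6 arrays. Of their 18 tested probes 4 had an unadjusted p under 0.05, all higher in WD, against 2.56% of all tested probes in that direction. Timp3, an inhibitor of ADAM10, ADAM17 and ADAMTS proteases, had 8.32, 8.23 and 8.36 on SD against 8.98, 8.62 and 8.71 on WD (1.38-fold, unadjusted p = 0.0105, adjusted p = 0.874). Timp2 had 11.22, 11.32 and 11.45 on SD against 11.85, 11.63 and 11.53 on WD (1.26-fold, adjusted p = 0.935). The diets did not overlap at either gene, although a dimmer probe of Timp3 had a difference of 0.04 ± 0.28.

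Rhbdf1, whose protein iRhom1 carries ADAM17 to the cell surface, had 5.68, 5.22 and 5.88 on SD against 6.58, 6.35 and 6.04 on WD (1.66-fold, unadjusted p = 0.00797, adjusted p = 0.872). The diets did not overlap. Its log2 difference of 0.73 was 0.26 without background correction and 1.01 without mice 5 and 6. Rhbdf2, its relative, was detected in 1 mouse of each diet and not tested, with 4.96, 6.19 and 4.91 on SD against 5.68, 5.32 and 4.64 on WD. A dim probe of Tspan17, a tetraspanin partner of ADAM10, was named after its values were seen and had 5.70, 5.59 and 5.42 on SD against 6.35, 6.25 and 5.98 on WD (adjusted p = 0.801). Its brightest probe overlapped between the diets, with 9.70, 9.77 and 9.67 on SD against 10.61, 10.10 and 9.66 on WD (unadjusted p = 0.108), and the remaining tested probe had a difference of 0.11 ± 0.35. Timp1 was high in a single animal, with 5.19, 5.64 and 5.45 on SD against 7.86, 5.68 and 5.44 on WD. Its log2 difference of 0.90 was 0.13 without WD mouse 3.

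**Figure D5:**
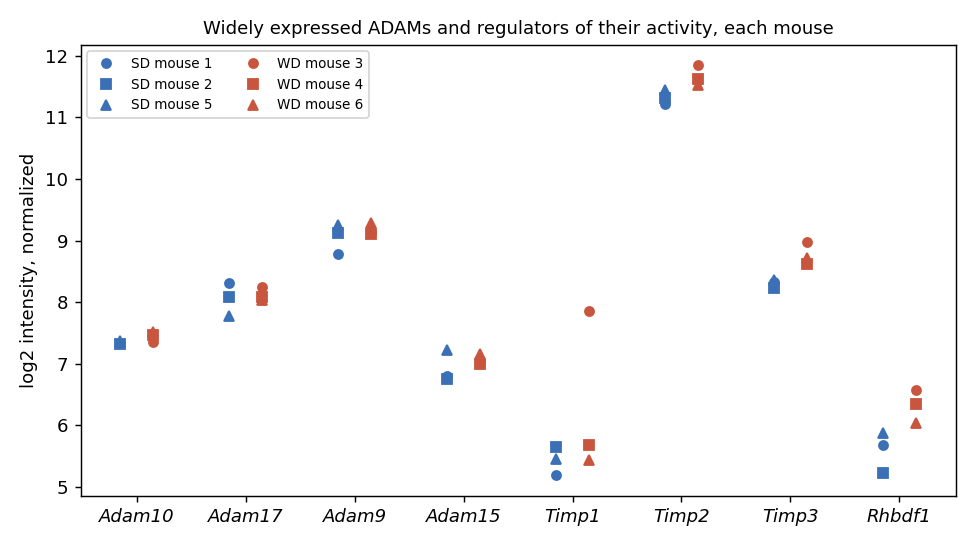
Normalized log2 intensity (vertical axis) of 4 widely expressed ADAMs and 4 regulators at their brightest probes, 1 point per mouse, SD in blue and WD in red. WD points lie above SD points at Timp2, Timp3 and Rhbdf1, and Timp1 is high in WD mouse 3 alone.

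Markers of other testis cells were set beside the regulators, and none passed the test. Relative to the SD mean, the regulators had medians of -0.01, 0.04 and 0.06 on SD against 0.50, 0.25 and 0.01 on WD, so the diets overlapped through WD mouse 6. Macrophage markers had -0.10, -0.01 and 0.10 on SD against 0.82, 0.19 and 0.21 on WD, with 8 of 8 tested genes higher in WD, none undetected and WD mouse 3 the highest of all mice in 6. Their summed linear level was 1577 to 1690 in SD and 1903 to 3024 in WD. At the brightest probes their log2 differences ran from 0.13 in Adgre1 to 0.90 in Cd74. The diets overlapped at both of these probes. Peritubular markers (3 of 3 tested genes higher, with Cnn1 and Tagln undetected) summed to 2451 to 2844 in SD and 3085 to 3627 in WD. In such sums the brightest probes weigh most, Acta2 here and Insl3 in the Leydig markers below. The log2 difference was 0.33 in Acta2, 0.66 in Myh11 and 0.02 in Des. Sertoli markers (5 of 6 higher, Amh undetected) summed to 2778 to 2846 in SD and 2871 to 3766 in WD. Their medians were 0.0, -0.04 and -0.01 on SD against 0.28, 0.21 and -0.01 on WD, so these overlapped through WD mouse 6. Leydig markers (4 of 6 higher, none undetected) summed to 41237 to 47575 and 44132 to 59409, which overlap. Leydig markers had medians of -0.05, 0.03 and 0.05 on SD against 0.60, -0.08 and -0.09 on WD, high in WD mouse 3 and below all SD mice in the other two WD mice. Endothelial markers (4 of 4 higher, Kdr undetected) summed to 443 to 579 and 608 to 629. The part of these cell types in the values of the regulators was not tested.

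Genes of protease targets did not pass the test. Of 15 listed shed substrates 8 were tested, 5 higher and 3 lower in WD (median 0.13), and tumour necrosis factor (Tnf) was detected in no mouse. The smallest p were those of the chemokine Cx3cl1 (0.39 ± 0.24) and the growth factor receptor Egfr (0.28 ± 0.19), with overlapping diets. With single mice left out, Cx3cl1 ranged from 0.12 (without WD mouse 6) to 0.59 (without WD mouse 4), and Egfr from 0.13 (without SD mouse 2) to 0.45 (without SD mouse 1). Of 12 listed ADAMTS substrates and relatives 3 were tested, namely Vwf (0.06 ± 0.14), Papln (-0.30 ± 0.20) and Comp (-0.05 ± 0.12), the last named after its values were seen. The proteoglycan genes Vcan and Acan, also named afterwards, were not tested, being detected on at most 1 array at each probe.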

How the data were processed

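Testis RNA of 6 mice was measured with BeadChips of the Illumina type MouseWG-6 v2.0. The deposited intensity values, exported with GenomeStudio (version not given in the sources used here), are linear and not normalized, with medians that differ between arrays. For their own tests the authors subtracted background and applied RMA, according to the methods text. A further deposited column per array, headed as a detection p-value, increases with brightness and was therefore treated as a score from which 1 minus the value gives the detection p. A table of log2 values deposited by the authors equals log2 intensity after subtracting the array's upper quartile and a value per probe common to all arrays, whose origin is unknown (remaining standard deviation over arrays at most 0.000152). Their medians were -0.01725, -0.05636 and 0.001854 on SD against -0.01196, 0 and 0.007596 on WD.

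Intensities were corrected and quantile normalized with neqc of limma 3.58.1 (R 4.3.3, offset 16). Probes with a detection p under 0.05 on at least 3 of 6 arrays were tested (19763) for the difference WD minus SD in a two-sided limma test (lmFit, eBayes), with Benjamini-Hochberg adjustment over all tested probes and a threshold of 0.05. The procedure was tried in 10 simulations with 3 arrays per diet. It called 6.27% of probes given a 1.5-fold difference, 50.3% at 2-fold and 87.7% at 4-fold. Probes without a simulated difference were called in 0.0153% of cases. Most 1.5-fold differences were thus missed, so an absence of calls says little about differences of that size. The p-values set differences against the spread between 3 mice per diet, whose number limits the precision. A gene was represented by its tested probe with the highest mean. Of 45281 probes, 34885 had 1 symbol in the platform annotation, 18 several and 10378 none here, and 34807 matched the RefSeq gene table (GRCm38.p6) by Entrez number with 0 symbols changed. The deposited files name no build, so gene positions are not given, apart from the RefSeq promoters.

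Members, classes and lists were chosen with earlier results of these data known. The naming rule gives the values of each mouse for Adam1a (not analysed here), Adam1b, Adam2, Adam3, Adam10, Adam17 and Adamts1, for the 5 genes with the smallest p among sperm ADAMs, other ADAMs and ADAMTS, and for members past the threshold, with probes of opposite sign, or detected throughout 1 diet and never in the other, and other members by ranges. Of the partners it names Calr3, Clgn, Pdilt, Ace, Timp1, Timp2, Timp3, Rhbdf1, Rhbdf2 and the 2 with the smallest p per list. Alternatives covered normalization, background correction, offset, filters, the variance trend, each mouse left out and the arrays of mice 5 and 6.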

Additional observations from a re-analysis of the deposited data

How the results depend on the processing

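No paired analysis was made, because the sample labels name no pairs of SD and WD mice. With the dim arrays of mice 5 and 6 as a block, which pairs no mice, 1264 of all probes had an unadjusted p under 0.05, the smallest adjusted p was 0.655 and no call changed. In the limma comparison 0 probes, and 0 ADAM or ADAMTS probes, passed the adjusted threshold in any of 16 alternatives. At an unadjusted p under 0.05 there were 1013 of all probes, from 762 with median scaling to 2213 without a filter, 1567 without mice 5 and 6, and 766 to 1572 with single mice left out (1572 without mouse 6 of WD). Of the members 1 or 2 had such a p in every alternative but that without a filter, which gave 5, where 45281 probes were tested. Of 30 named gene values 19 kept their direction throughout. Since many were named for a small p in these arrays, this is no separate evidence.

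The median of sperm ADAMs was -0.12 with the deposited log2 values and 0.03 with median scaling, where the median of all genes was 0.053. Genes maturing sperm ADAMs had -0.10 and 0.06 under these. The median of the regulators (0.20) was 0.34 without mice 5 and 6, 0.09 without a filter or with genes detected on all 6 arrays, and 0.13 without mouse 3 of WD to 0.28 without mouse 6 of WD. ADAMTS substrates and relatives had -0.11 with the deposited values, 0.01 with median scaling, 0.03 without a filter, -0.12 without mice 5 and 6, and -0.11 (without mouse 5 of SD) to -0.02 (without mouse 1 of SD). At a detection p under 0.01, 1 ADAMTS probe was detected on all arrays. With single mice left out, the median ranged from -0.06 to -0.02 in sperm ADAMs, from 0.08 to 0.16 in widely expressed ADAMs and from -0.07 to 0.02 in ADAMTS (0.02 without mouse 3 of WD).

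Reversed values were small. With single mice left out, the log2 difference ranged from -0.08 to 0.19 for Adam17, -0.09 to 0.03 for Adam29, -0.02 to 0.13 for Adam3, -0.02 to 0.21 for Adam9, -0.24 to 0.02 for Adamts17, -0.08 to 0.02 for Adamts9, -0.14 to 0.25 for Ace, -0.16 to 0.09 for Clgn and -0.10 to 0.02 for Pdilt. The sign turned without mouse 1 of SD in Adam29, Adam3, Adam9 and Clgn, without mouse 5 of SD in Adam17, Adamts9, Ace and Pdilt, without mouse 3 of WD in Adamts17, Adamts9, Ace and Pdilt, without mouse 4 of WD in Adam29 and without mouse 6 of WD in Adam3. Without mice 5 and 6 it was -0.04 for Adam17, -0.01 for Adam3 and Adamts12 and -0.06 for Ace, and with median scaling it was 0.03 for Adam29, 0.00 for Calr3, 0.07 for Clgn and 0.06 for Pdilt. Among values that kept their sign or reached 0, Adam1b was 0.02 without mouse 4 of WD, Adam20 -0.02 and Adamts12 0.0 without mouse 5 of SD, Adam30 -0.04 without mouse 1 of SD and Papln -0.17 without mouse 4 of WD. The cause was not tested. Dim probes have few intensity units above background, which limits what can be seen of them.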
